A study of Mus musculus with 36 samples.

Results

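The loci of 5 naive pluripotency genes, Esrrb, Tfcp2l1, Tbx3, Prdm14 and Zfp42, were examined in mouse embryonic stem cells through every ChIP-seq peak that touched a fixed window around each gene. The windows, in mm9 coordinates, were chr12:87650000-87900000 for Esrrb, chr1:120470000-120630000 for Tfcp2l1, chr5:120050000-120200000 for Tbx3, chr1:13050000-13170000 for Prdm14 and chr8:44330000-44450000 for Zfp42, 0.8 Mb in all. They held 400 of the 292990 peaks on the main chromosomes in 14 deposited lists. The study followed binding of Nanog, Sox2 and Oct4 and the histone mark H3K4me3 when cells moved from serum medium to 2i, a serum-free medium with 2 kinase inhibitors. KH2 cells, an established mouse embryonic stem cell line, were grown with LIF (leukaemia inhibitory factor), in serum on irradiated CF1 mouse embryonic fibroblast feeders, or in 2i for 24 h or 3 passages.

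Nanog was precipitated with antibody lot 1 in KH2 cells under these 3 conditions. With lot 2 it was precipitated at 24 h in TKO cells (embryonic stem cells with a triple knockout of the DNMT genes, which encode the DNA methyltransferases), at 24 h in KH2 cells, and in KH2 cells labelled GFP-high in serum. The labels do not say what drives the GFP. The 3 lists of Sox2 and the 3 of H3K4me3 come from KH2 cells under the same 3 conditions, and the 2 of Oct4 from KH2 cells in 2i for 24 h or in serum. The labels mark the 24 h medium of the 2 Nanog lots as different versions, so antibody lot and medium version cannot be told apart, and TKO and KH2 cells differ in line as well as in knockout. The labels hold 1 sample for 6 lists (Oct4, Nanog lot 2 and Sox2 at 3 passages) and 2 samples for the other 8. The Sox2 libraries are labelled as total RNA, yet they name an antibody and their files hold peaks, so they were taken as ChIP-seq.

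Naive pluripotency is held by a network in which Oct4, a POU-domain factor, Sox2, an HMG-box factor, and Nanog, a homeodomain factor, bind distal enhancers of genes that include a second tier of regulators. Esrrb is an orphan nuclear receptor and a known Nanog target, Tfcp2l1 is a CP2-family factor, Tbx3 is a T-box factor, and Prdm14 is a PR-domain protein that represses FGF signalling and de novo DNA methyltransferase genes. Zfp42, also called Rex1, is a zinc-finger protein widely used as a marker of the naive state. H3K4me3 marks active or poised promoters.

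Promoter sequences were shown for 3 of these genes to give the letters at their annotated starts. They run from 250 bases before to 50 bases after a RefSeq start on GRCm38.p6, a later build than the peaks, so they were not placed against them. Capitals mark matches to 6 motifs, chosen after the sequences were seen and searched on both strands: the octamer ATTTGCAT bound by POU factors, the Sox core CATTGT, the TATA box TATAAA, the Esrrb site CAAGGTCA, the Klf and Sp box CCCACCC and the Tcf core ATCAAAG.
Zfp42, chr8:43306960-43307259, minus strand: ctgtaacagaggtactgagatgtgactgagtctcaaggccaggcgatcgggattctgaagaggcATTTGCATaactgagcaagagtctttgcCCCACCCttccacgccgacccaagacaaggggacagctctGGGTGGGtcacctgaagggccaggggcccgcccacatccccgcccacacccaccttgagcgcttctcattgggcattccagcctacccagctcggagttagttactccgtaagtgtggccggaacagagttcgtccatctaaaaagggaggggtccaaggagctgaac
Tfcp2l1, chr1:118627695-118627994, plus strand: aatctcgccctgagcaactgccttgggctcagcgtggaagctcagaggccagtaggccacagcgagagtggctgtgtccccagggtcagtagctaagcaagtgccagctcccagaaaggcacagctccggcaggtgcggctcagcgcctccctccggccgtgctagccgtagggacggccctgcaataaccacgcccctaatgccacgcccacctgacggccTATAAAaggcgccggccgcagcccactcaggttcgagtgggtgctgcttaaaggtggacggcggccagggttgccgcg
Esrrb, first of 2 starts, chr12:86360867-86361166, plus strand: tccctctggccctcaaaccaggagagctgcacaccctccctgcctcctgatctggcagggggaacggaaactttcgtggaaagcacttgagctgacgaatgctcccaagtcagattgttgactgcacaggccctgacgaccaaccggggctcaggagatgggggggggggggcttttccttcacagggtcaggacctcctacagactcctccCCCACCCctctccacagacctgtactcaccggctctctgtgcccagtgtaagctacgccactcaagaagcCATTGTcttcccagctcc
The Zfp42 sequence held the octamer, which 1.74% of 32851 promoters of the same length hold, and 2 matches to the Klf and Sp box, one on the opposite strand, which 17.5% hold. Tfcp2l1 held the TATA box (13.6% of promoters), and the first Esrrb start held the Sox core (12.6%) and the Klf and Sp box. The second Esrrb start, not printed, held the Klf and Sp box alone of the 6. A match is a run of letters and was not tested as a binding site.

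All 14 lists were denser in the windows than over the main chromosomes, which also include long stretches without genes. The Nanog lists of lot 1 held 36 window peaks for serum, 46 for 24 h and 40 for 3 passages, and those of lot 2 held 73 for TKO cells at 24 h, 28 for KH2 cells at 24 h and 33 for GFP-high serum cells. The Sox2 lists held 22 in serum, 21 at 24 h and 15 at 3 passages, and the Oct4 lists 11 at 24 h and 11 in serum. For H3K4me3 the lists held 20 in serum, 21 at 24 h and 23 at 3 passages. Peak density in the windows was 3.64 to 7.25 times that of the main chromosomes over the 11 factor lists and 3.42 to 4.01 times over the 3 H3K4me3 lists. The highest ratio was that of Oct4 in serum, and the highest of the Nanog lists was that of TKO cells, at 6.26. The lists are selections from longer sets of calls, their lowest −log10 q ran from 3.69 to 86.4, and read depth is unknown, so a missing call is not absence of binding.

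**Figure D1:**
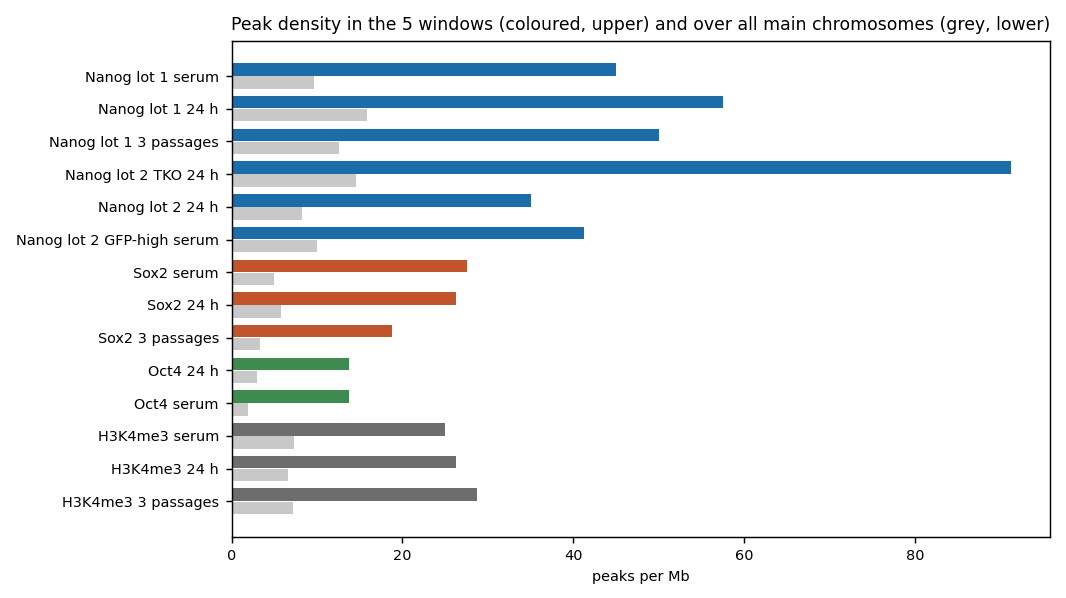
Peaks per Mb (horizontal axis) in the 5 windows (coloured bars) and over all main chromosomes (grey bars) for each of the 14 lists. The TKO Nanog list reaches 91.3 peaks per Mb in the windows, against 14.6 over the main chromosomes, and every coloured bar is longer than its grey one.

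Merging overlapping peaks of the 11 factor lists gave 87 factor regions in the windows, of 71038 on the main chromosomes: 29 at Esrrb, 18 at Tbx3, 16 at Prdm14, 13 at Tfcp2l1 and 11 at Zfp42. Of these, 8 were called in all 11 lists, which is 9.20% of the window regions, against 3.11% over the genome. The 8 lay at Esrrb (3), Prdm14 (3), Tfcp2l1 (1) and Tbx3 (1), and none at Zfp42. All 6 Nanog lists shared 21 regions (24.1%, against 13.1%). Nanog lot 1, Sox2 and Oct4 were called together in 10 regions in serum (11.5%, against 5.07%) and in 9 at 24 h (10.3%, against 8.14%), 8 of them the same regions (9.20%, against 4.14%), which makes 11 in either condition (12.6%, against 9.08%). Regions in a single list were about as frequent in the windows as elsewhere, 39 regions (44.8%, against 41%), and 30 of these 39 were from the TKO list. Without the TKO list, 57 regions were left, of which 15 were in a single list (26.3%, against 32.6%) and 8 in all 10 (14.04%, against 4.12%). Regions of 1 window are neighbours and not independent, and no test was made, since a condition had only 1 list.

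Of the 87 factor regions, 9 had their median summit within 5 kb of the highest H3K4me3 summit of their window. The median distance was 30.2 kb. The windows are 120 to 250 kb wide, and no even spread or genome-wide share was computed. These distances therefore do not show that the regions avoid H3K4me3 summits. In all, 19 regions overlapped an H3K4me3 peak of any list (21.8%, against 12.3% genome-wide). Of those 11 regions, 5 overlapped H3K4me3 (45.5%, against 14.2% of the 6450 such regions genome-wide), and 8 were in all 11 lists (72.7%, against 34.2%). Over the 25 regions called in 6 or more factor lists, the summits of 1 region spanned a median of 98 bp, between 41 and 421 bp. Merging by overlap itself limits this span, and no genome-wide value was computed.

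**Figure D2:**
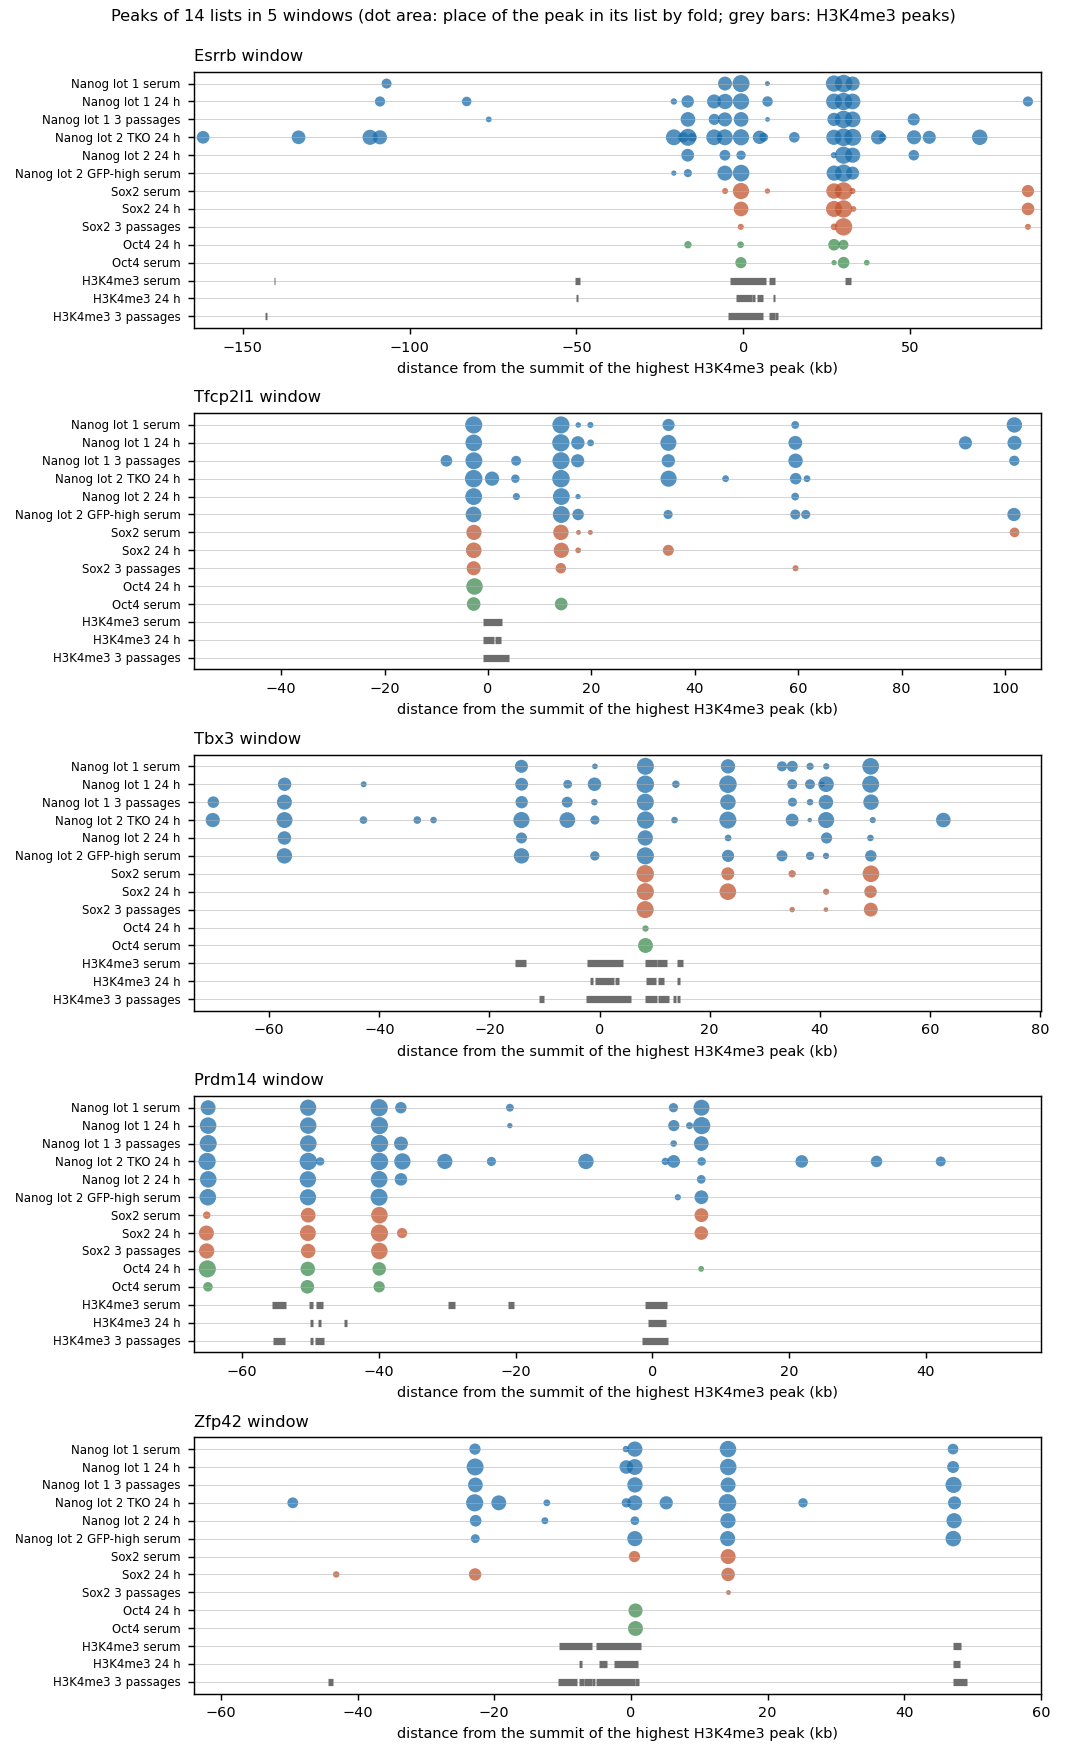
Peaks of the 14 lists in the 5 windows, by distance in kb from the summit of the highest H3K4me3 peak (horizontal axis) and list (vertical axis). Dots are factor peak summits, larger where more of the list has a lower fold, and grey bars span H3K4me3 peaks. Columns of dots run through all 11 factor lists at 8 positions, and the TKO list has the most dots.

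At Esrrb, 1 region stood above the others in nearly every list. It spanned chr12:87841848-87843575, 30.1 kb from the highest H3K4me3 summit, and was called in all 11 lists with summits within 62 bp. Only the serum list of H3K4me3 had a peak overlapping it, of fold 5.58. Its Nanog fold enrichment, the authors' ratio of signal over control at a peak, was 61.7 in serum, 42.7 at 24 h and 37.4 at 3 passages with lot 1. With lot 2 it was 119.5 in TKO cells at 24 h, 38.7 in KH2 cells at 24 h and 50.1 in GFP-high serum cells. Read depth is unknown and the lists are selections, so here these values rank peaks only inside a list. The rule for naming regions, however, took the highest fold over all lists. Ranked inside each list, this region was the highest Nanog peak of the Esrrb window in all 6 lists. In each Nanog list, 94.1% to 99.7% of the peaks had a lower fold. Its Sox2 fold was 32.0 in serum, 20.1 at 24 h and 19.4 at 3 passages, also the highest of the window in each list. Oct4 was less prominent there, with folds of 15.8 at 24 h and 16.5 in serum, so that 27.5% of the Oct4 list at 24 h and 39.4% in serum had a lower fold.

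The regions at chr12:87838762-87840537, next to the first, and chr12:87810977-87812862 were also called in all 11 lists. The one at chr12:87810977-87812862 lay inside the broad H3K4me3 peak, 0.68 kb from its summit. Its Nanog lot 1 fold was 37.7 in serum, 24.5 at 24 h and 12.2 at 3 passages. Among the 18069 regions called in all 3 lot 1 lists, a set of equal length for each condition, 89.6% had a lower fold than it in serum, 66.1% at 24 h and 49.8% at 3 passages. Its Sox2 place went the same way among the 6067 regions called in all 3 Sox2 lists, 68.3% in serum, 37.3% at 24 h and 5.11% at 3 passages. The neighbouring region showed the same order for Nanog, 77.8% in serum, 55.8% at 24 h and 35.1% at 3 passages. The top region stayed near the top, at 97.8%, 90.9% and 94.1% in the same order of conditions.

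Farther out, the Esrrb window held regions that were called in some lists and not in others. A missing call there is not absence of binding. The region at chr12:87795539-87796666, 16.6 kb from the H3K4me3 summit on the other side, was called in 5 of 7 2i lists and in 1 of 4 serum lists. Its Nanog folds were 10.2 at 24 h and 12.2 at 3 passages with lot 1, and 35.9 in TKO cells, 10.9 in KH2 cells at 24 h and 7.28 in GFP-high serum cells with lot 2, and Oct4 had 12.9 at 24 h. In the TKO list it was the second highest peak of the window. At Esrrb 3 regions were called in 2 or more 2i lists and in no serum list (10.3%, against 15.3% genome-wide). Their folds ran from 7.33 to 18.2. Another 2 were in serum alone (6.90%, against 8.77%), an Oct4 peak of fold 10.4 and a Nanog lot 1 peak of fold 9.09. Of the 29 Esrrb regions, 13 were in the TKO list alone (44.8%, against 19.8% genome-wide).

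Tfcp2l1 had 2 leading regions on either side of its single H3K4me3 domain. The region at chr1:120521760-120523479, 2.77 kb from the H3K4me3 summit, was in all 11 lists. Its Nanog fold was 38.5 in serum, 28.9 at 24 h and 26.1 at 3 passages with lot 1, and 66.2 in TKO cells, 29.6 in KH2 cells at 24 h and 21.1 in GFP-high serum cells with lot 2. It was the highest Oct4 peak of the window, with a fold of 38.6 at 24 h and 19.96 in serum. Among the 4018 regions called in both Oct4 lists, 75.7% had a lower fold at 24 h and 50.9% in serum. Sox2 kept nearly the same place, 52.0% in serum, 52.3% at 24 h and 50.7% at 3 passages.

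The other Tfcp2l1 region, chr1:120538641-120540011, was the highest Nanog peak of the window in every KH2 list. It was called in 10 lists and lacked only Oct4 at 24 h, while Oct4 in serum had a fold of 18.0 there. Its Nanog lot 1 place was 90.6% in serum, 91.1% at 24 h and 89.1% at 3 passages. A region at chr1:120626441-120627259, 101.8 kb from the H3K4me3 summit, was called for Nanog and Sox2 in serum, with Nanog folds of 19.3 in serum, 13.3 at 24 h and 6.78 at 3 passages and a Sox2 fold of 7.64 in serum. The TKO and KH2 lot 2 lists at 24 h held no call there, and GFP-high serum cells had a fold of 12.1. Its lot 1 place was 65.4% in serum, 31.1% at 24 h and 17.2% at 3 passages. The region at chr1:120559118-120560182 took the opposite course at 24 h, with places of 33.6% in serum, 60.9% at 24 h and 35.8% at 3 passages. With lot 2, KH2 cells at 24 h had no call there, while TKO cells had a fold of 20.996 and GFP-high serum cells 7.92.

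At Tbx3 the region called in all 11 lists, chr5:120128909-120132649, lay 8.31 kb from the highest H3K4me3 summit and overlapped a smaller H3K4me3 peak in all 3 conditions. Its Nanog fold was 36.3 in serum, 48.8 at 24 h and 27.2 at 3 passages with lot 1. With lot 2 it was 50.04 in TKO cells, 17.2 in KH2 cells at 24 h and 43.8 in GFP-high serum cells. It carried the only Oct4 peak of the window, with a fold of 11.7 at 24 h and 23.1 in serum. Among the regions called in both Oct4 lists, 3.98% had a lower fold at 24 h and 63.1% in serum. At 24 h it thus stood near the foot of these shared regions. Sox2 was high there throughout, with folds of 30.4 in serum, 15.8 at 24 h and 14.7 at 3 passages.

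A second Tbx3 region differed more between conditions and between antibody lots. At chr5:120144782-120145483, 23.3 kb from the H3K4me3 summit, the Nanog lot 1 fold was 15.2 in serum, 50.3 at 24 h and 15.1 at 3 passages. Among the Nanog peaks of the window it had rank 3 in serum, rank 1 at 24 h and rank 2 at 3 passages, and its place was 53.3% in serum, 95.2% at 24 h and 61.4% at 3 passages. With lot 2, however, the fold was 33.1 in TKO cells, rank 2 in the window, 6.52 in KH2 cells at 24 h, rank 5, and 10.4 in GFP-high serum cells. The high 24 h place of lot 1 was thus not seen in the KH2 list of lot 2 at the same time. Sox2 had folds of 9.90 in serum and 12.4 at 24 h there, with no call at 3 passages.

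A further 2 Tbx3 regions had different orders. At chr5:120162547-120163538 the lot 1 place was 4.66% in serum, 51.9% at 24 h and 47.8% at 3 passages. At chr5:120170526-120171562 it was 83.6% in serum, 80.7% at 24 h and 60.1% at 3 passages, and the Sox2 place there was 75.4% in serum, 19.3% at 24 h and 48.7% at 3 passages. In the TKO list this last region had rank 15 of the 18 Tbx3 peaks, with a fold of 6.77. Tbx3 also held 4 of the 9 window regions called in 2 or more 2i lists and in no serum list, with folds of 5.69 to 17.9. These were 22.2% of its 18 regions, against 15.3% genome-wide. It held 1 region in serum lists alone (5.56%, against 8.77%), chr5:120154627-120155463. The Nanog fold there was 9.11 for lot 1 in serum and 9.11 for lot 2 in GFP-high serum cells.

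Prdm14 had 3 regions called in all 11 lists, all on one side of its highest H3K4me3 summit at 39.9 to 65.0 kb. The region at chr1:13074007-13075932 was the highest Nanog peak in serum and at 3 passages with lot 1, and in all 3 lot 2 lists. Its Nanog fold was 43.9 in serum, 38.0 at 24 h and 32.9 at 3 passages with lot 1, and 68.8 in TKO cells, 27.5 in KH2 cells at 24 h and 40.1 in GFP-high serum cells with lot 2. Sox2 was also highest there in each of its lists, with folds of 18.7 in serum, 16.3 at 24 h and 12.2 at 3 passages. The region at chr1:13063617-13065593 overlapped a weak H3K4me3 peak in all 3 conditions.

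The remaining one of the 3, chr1:13049365-13050692, crosses the edge of the window and differed most between the Oct4 lists. Its Oct4 fold was 51.6 at 24 h and 14.03 in serum, and its place among the shared Oct4 regions was 87.8% at 24 h and 20.6% in serum. It was thus the highest Oct4 peak of the window at 24 h and the lowest of 3 in serum. Its Sox2 place was 4.78% in serum, 42.9% at 24 h and 64.4% at 3 passages, and its Nanog lot 1 place was 60.2% in serum, 71.2% at 24 h and 86.6% at 3 passages. Here all 3 factors, with Nanog by lot 1, stood higher among their shared regions in 2i than in serum. With Nanog lot 2 the fold was 40.7 in TKO cells, 25.9 in KH2 cells at 24 h and 29.6 in GFP-high serum cells.

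Another Prdm14 region, chr1:13121629-13122724, 7.18 kb from the H3K4me3 summit, had all 3 factors at 24 h but no Oct4 call in serum. Its Oct4 fold at 24 h was 11.1, a low value at which only 4.81% of that list was lower. Its Nanog lot 1 fold was 23.3 in serum, 38.1 at 24 h and 12.3 at 3 passages, and at 24 h it was the highest Nanog peak of the window. With lot 2 it was 8.10 in TKO cells, rank 12 of 14 peaks, 7.59 in KH2 cells at 24 h, the lowest of 5, and 13.1 in GFP-high serum cells. As at Tbx3, the top rank at 24 h was that of lot 1 alone. Sox2 had folds of 10.96 in serum and 6.44 at 24 h and no call at 3 passages.

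Zfp42 was the only window with no region called in all 11 lists. It held only 11 factor regions, and the genome-wide share of such regions was 3.11%. With so few regions, a count of 0 does not set this locus apart. The region at chr8:44391559-44393012 lay 0.57 kb from the highest H3K4me3 summit and was called for all 3 factors in serum. Oct4 had its only peak of the window there, with a fold of 23.2 at 24 h and 23.1 in serum. Sox2 had a fold of 8.52 in serum and no call at 24 h or 3 passages. Nanog folds were 18.7 in serum, 20.6 at 24 h and 14.1 at 3 passages with lot 1, and 14.7 in TKO cells, 7.63 in KH2 cells at 24 h and 17.8 in GFP-high serum cells with lot 2.

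The region at chr8:44405670-44407188 carried the window's highest Sox2 peak in each list, with folds of 13.1 in serum, 6.33 at 24 h and 3.92 at 3 passages. Its Sox2 place was 49.3% in serum, 25.7% at 24 h and 1.04% at 3 passages. With Nanog lot 2 it was the highest peak of the window in TKO cells, where 98.4% of the list had a lower fold, and the second highest in KH2 cells at 24 h, where 72.4% of the list had a lower fold. The region at chr8:44368374-44369764 had Nanog lot 1 folds of 10.1 in serum, 32.7 at 24 h and 12.4 at 3 passages, with places of 26.9%, 80.5% and 50.8% in that order of conditions. With lot 2 it had a fold of 40.1 in TKO cells, 9.69 in KH2 cells at 24 h and 7.76 in GFP-high serum cells. The highest Nanog peak of the window thus differed by list, since at 3 passages and in both KH2 lists of lot 2 it was the region at chr8:44438897-44440117, with a fold of 18.1 at 3 passages.

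Taking the 3 conditions together, 29 of 53 Nanog lot 1 regions in the windows were called in all 3 (54.7%, against 36.2% genome-wide). Another 9 were called at 24 h alone (17.0%, against 20.5%), 5 at 3 passages alone (9.43%, against 8.79%) and 4 at both 2i times and not in serum (7.55%, against 20.1%). Another 3 were in serum and at 24 h (5.66%, against 6.34%), and 2 in serum alone (3.77%, against 7.06%). For Sox2, 12 of 28 regions were in all 3 lists (42.9%, against 29.6%), 5 in serum alone (17.9%, against 19.1%), 4 at 24 h alone (14.3%, against 25.9%), 4 in serum and at 24 h (14.3%, against 12.5%) and 1 at both 2i times alone (3.57%, against 6.22%). Across all factor lists, 9 regions were called in 2 or more 2i lists and no serum list (10.3%, against 15.3%), and 3 in serum lists and no 2i list (3.45%, against 8.77%).

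Pairs of lists were then compared. Between the 24 h and serum lists of Nanog lot 1, 32 of 49 regions were in both (65.3%, exact 95% interval 50.4% to 78.3%, against 46.5% genome-wide), 14 were at 24 h alone (28.6%, against 44.5%) and 3 in serum alone (6.12%, against 8.95%). Between 3 passages and serum, 31 of 45 were in both (68.9%, 53.4% to 81.8%, against 46.8%), 9 were at 3 passages alone (20%, against 36.4%) and 5 in serum alone (11.1%, against 16.9%). Both comparisons use the same serum list. At equal list length the 24 h-only and serum-only counts of the first were 5 and 5 (12.5% each, against 24% and 23.8% genome-wide). Those of the second were 6 at 3 passages alone and 7 in serum alone (14.3% and 16.7%, against 26% and 25.6%). Equal length brings the 2 counts of a comparison close genome-wide by construction. These counts therefore cannot show what the excess of 2i-only over serum-only regions depended on. For lot 2, 24 of 37 were in both the 24 h and the GFP-high serum list (64.9%, 47.5% to 79.8%, against 47.6%), 4 were at 24 h alone (10.8%, against 19.2%) and 9 in GFP-high serum cells alone (24.3%, against 33.2%). Intervals cover counting error only, and regions of 1 window are not independent.

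Sox2 and Oct4 gave smaller counts. At 24 h against serum, 16 of 27 Sox2 regions were in both lists (59.3%, 38.8% to 77.6%, against 43.9%), 5 at 24 h alone (18.5%, against 33.5%) and 6 in serum alone (22.2%, against 22.7%). At 3 passages, 13 of 24 were in both (54.2%, 32.8% to 74.4%, against 43.5%), 2 at 3 passages alone (8.33%, against 13.8%) and 9 in serum alone (37.5%, against 42.6%). The larger count in serum alone was also seen genome-wide. At equal list length there were 3 at 3 passages alone and 3 in serum alone (16.7% each, against 26.4% and 26.5% genome-wide). At a −log10 q of at least 10 there were 0 and 13 (8.88% and 52.2% genome-wide). Equal length brings the 2 counts close genome-wide by construction, and this cut-off removes peaks from the 3-passage list only. Neither setting can therefore show what the larger count depended on. For Oct4, 9 of 13 regions were in both lists (69.2%, 38.6% to 90.9%, against 45.8%), 2 at 24 h alone (15.4%, against 43.1%) and 2 in serum alone (15.4%, against 11.1%). The intervals of all these shared fractions include the genome-wide value. At equal list length, no Oct4 region was at 24 h alone and 4 were in serum alone (24.7% each genome-wide), against 2 and 2 with the lists as deposited.

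**Figure D3:**
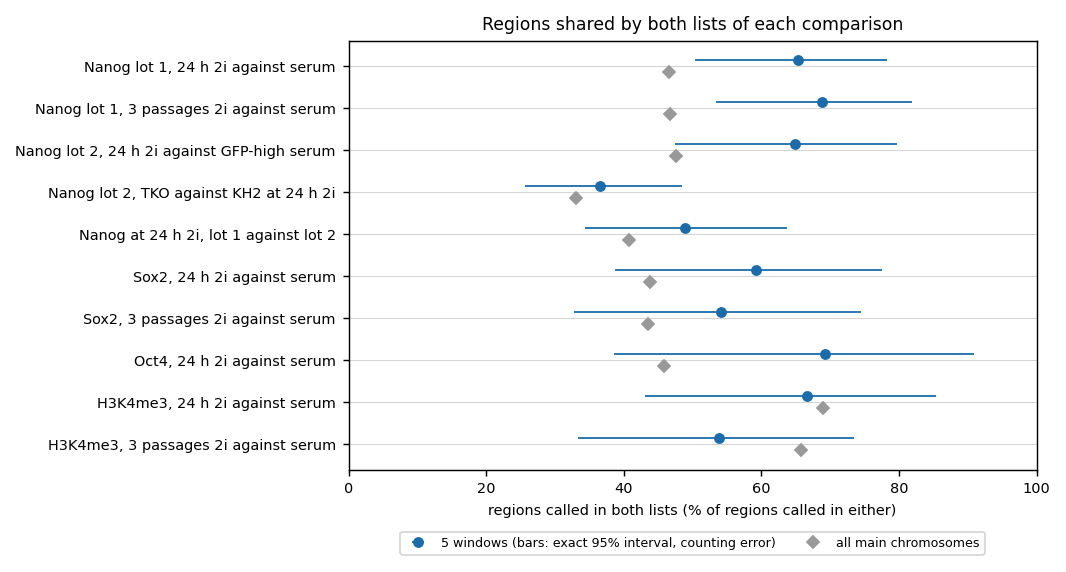
Share of regions called in both lists of each comparison, in percent of regions called in either (horizontal axis), for the 5 windows (circles, with exact 95% binomial intervals) and over all main chromosomes (diamonds). The circles of all 8 factor comparisons lie right of their diamonds, and the 2 H3K4me3 circles lie left of theirs.

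The TKO cells gave the most Nanog calls at these loci. Against KH2 cells at 24 h with the same antibody lot, 46 of 74 regions were called only in TKO cells (62.2%, exact 95% interval 50.1% to 73.2%, against 51.8% genome-wide), 1 only in KH2 cells (1.35%, 0.0342% to 7.30%, against 15.2%) and 27 in both (36.5%, against 33.1%). The 1 KH2 region was at Tfcp2l1, chr1:120541718-120542962, where the KH2 fold was 5.70. By locus, the regions in TKO cells alone numbered 16 at Esrrb, 12 at Tbx3, 9 at Prdm14, 5 at Zfp42 and 4 at Tfcp2l1. The TKO list was the longer of the pair, 38518 peaks against 21893. With both at the shorter length, 21 of 49 regions were left for TKO cells only (42.9%, 28.8% to 57.8%, against 29.7% genome-wide). For KH2 cells only, 6 were left (12.2%, 4.63% to 24.8%, against 29.7%). The TKO interval includes the genome-wide value and the KH2 interval does not, but regions of 1 window are not independent.

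Many of the additional TKO regions were in no other list. When all 11 factor lists were merged, 44 regions were in the TKO list and not in the KH2 lot 2 list at 24 h, of which 14 were in some other factor list (31.8%, against 39% genome-wide). The TKO folds of these 14 ran from 4.55 to 20.996 with a median of 10.7, so that the median one exceeded 49.4% of the TKO list. The remaining 30 were in the TKO list alone (34.5% of the 87 window regions, against 19.8% genome-wide). Their folds ran from 5.91 to 16.6 with a median of 9.33, so that the median one exceeded 36.0% of the TKO list. In each window, the region with the highest TKO fold was also called in every KH2 Nanog list. The Esrrb region of fold 119.5 had rank 133 in the whole TKO list. Chromosome 8, which holds Zfp42, took 6.51% of the TKO list, against 4.71% to 5.07% of the KH2 Nanog lists, and its part in the Zfp42 counts was not tested.

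At 24 h the 2 Nanog antibody lots shared 24 of 49 regions in KH2 cells (49.0%, exact 95% interval 34.4% to 63.7%, against 40.8% genome-wide). Lot 1 alone held 21 (42.9%, against 51.6%) and lot 2 alone 4 (8.16%, against 7.61%). With the lists at equal length, 9 regions were in lot 1 alone (24.9% genome-wide). By locus, 6 of 13 Esrrb regions, 6 of 13 Tbx3 regions, 4 of 9 at Tfcp2l1, 4 of 8 at Prdm14 and 4 of 6 at Zfp42 were in both.

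At Esrrb the highest H3K4me3 peak had a fold of 39.1 and a width of 10895 bp in serum, 23.9 and 4788 bp at 24 h, and 44.3 and 10571 bp at 3 passages, where list medians were 1505, 1121 and 1242 bp. At 24 h 2 further peaks, of folds 3.58 and 4.59, lay within the span of the serum domain. At Zfp42 the fold was 24.2 in serum, 20.9 at 24 h and 44.2 at 3 passages. Both stood high in every list, with at least 97.0% of the list lower at Esrrb and at least 86.9% at Zfp42.

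Tbx3, Tfcp2l1 and Prdm14 stood lower in serum. Among the H3K4me3 regions called in all 3 lists, the serum place was 99.2% for the Esrrb peak and 81.0% for the Zfp42 peak. At Tbx3 the highest H3K4me3 peak had a fold of 18.1 in serum, 14.7 at 24 h and 46.2 at 3 passages, and among the 13236 H3K4me3 regions called in all 3 lists 55.7% had a lower fold in serum, 76.6% at 24 h and 99.0% at 3 passages. At Prdm14 the peak at chr1:13113660-13117349 had a fold of 8.51 in serum, 6.70 at 24 h and 19.6 at 3 passages, with places of 12.1%, 25.5% and 75.6% in that order of conditions. In serum another Prdm14 peak, chr1:13059467-13061460, was slightly higher, at 9.26. Tfcp2l1 had folds of 16.4 in serum, 16.6 at 24 h and 17.7 at 3 passages, with places of 47.4%, 83.5% and 69.3%. Each condition is 1 list, so these orders have no replicate check.

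Of the 13 H3K4me3 regions in the windows called in all 3 conditions, 11 had a higher place at 24 h than in serum (50.4% of all 13236 did), and 11 a higher place at 3 passages than in serum (49.3% of all did). Both counts use the same serum list, and the 13 regions lie at only 5 loci. Their median place was 12.1% in serum, 20.2% at 24 h and 69.3% at 3 passages. A low place in serum leaves more room to rise than to fall. The shares over all 13236 are not a background matched to the serum places of these 13 regions. The 2 that were not higher at 3 passages were the Esrrb domain, 98.8% at 3 passages and 99.2% in serum, and the Tbx3 peak at chr5:120135826-120136903, 1.75% at 3 passages and 7.81% in serum. For the factors, 13 of 29 Nanog lot 1 regions were higher at 24 h than in serum (47.7% of all were) and 10 of 29 at 3 passages (48.9%), while 5 of 12 Sox2 regions were higher at 24 h (49.4%) and 4 of 12 at 3 passages (49.3%). For Oct4, 4 of 9 shared regions were higher at 24 h than in serum (48.7%).

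**Figure D4:**
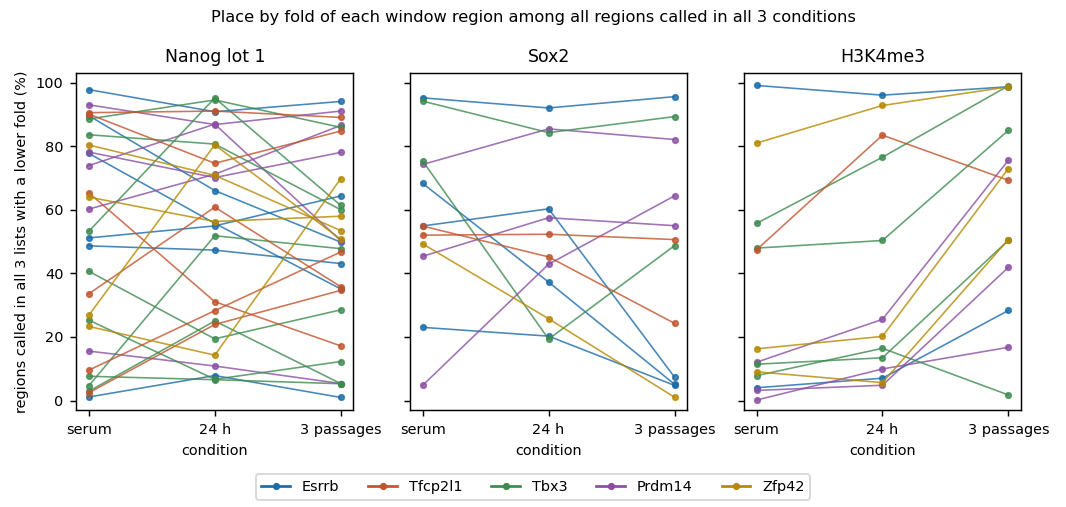
Place of each window region called in all 3 conditions, as the percentage of all such regions genome-wide with a lower fold (vertical axis), in serum, at 24 h and at 3 passages (horizontal axis), coloured by locus. Nanog lot 1 (29 regions) and Sox2 (12 regions) lines cross in both directions, whereas 11 of 13 H3K4me3 lines end higher at 3 passages than in serum. The 13 H3K4me3 lines start at a median place of 12.1% in serum, which leaves more room to rise than to fall.

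For H3K4me3 calls, the interval of the shared fraction included the genome-wide value in both comparisons. Between 24 h and serum, 14 of 21 regions were in both lists (66.7%, exact 95% interval 43.0% to 85.4%, against 69% genome-wide), 1 was at 24 h alone (4.76%, against 6.27%) and 6 in serum alone (28.6%, against 24.7%). At equal list length these were 2 at 24 h alone and 3 in serum alone (8.24% and 18.4% genome-wide), and at a −log10 q of at least 10 they were 0 and 12 (0.661% and 37.2%). Between 3 passages and serum, 14 of 26 were in both (53.8%, 33.4% to 73.4%, against 65.8%), 6 at 3 passages alone (23.1%, against 13.6%) and 6 in serum alone (23.1%, against 20.6%). All 3 conditions shared 13 of 27 regions (48.1%, against 57.4%), 5 were in serum alone (18.5%, against 16.1%) and 6 at 3 passages alone (22.2%, against 11.7%). The length under H3K4me3 peaks was smaller at 24 h at each locus: 16.7 kb in serum, 8.41 kb at 24 h and 13.9 kb at 3 passages at Esrrb, 13.4, 8.29 and 14.3 kb at Tbx3, 8.59, 3.82 and 7.28 kb at Prdm14, and 12.6, 6.13 and 13.97 kb at Zfp42 in that order. At Tfcp2l1 it was only a little smaller, 3.64 kb in serum, 3.42 kb at 24 h and 5.10 kb at 3 passages. The 24 h list as a whole also had the narrowest peaks and the lowest median fold, 8.16, against 12.6 in serum and 10.003 at 3 passages, and what sets this was not tested.

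By the rule for naming regions, 37 of the 87 factor regions were described or counted above by class. The other 50 had highest folds of 4.15 to 19.3 with a median of 9.04, a range that overlaps that of the named regions, and 35 of them were called in 1 list, 28 in the TKO list. None of the 50 was called in more than 7 lists.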

How the data were processed

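Peak lists of 14 ChIP-seq conditions, made from 22 of the 36 samples in the labels, were analysed. H3K27me3, whole-cell extract and RNA samples were not analysed here. Per the submitters' processing notes, the tools of the series include MACS2, Bowtie 0.12.7, BWA 0.5.7, TopHat, Cuffdiff and Cufflinks 2.2.1, and the genome build is mm9. The aligner behind a given list, the rule that selected its peaks and what was pooled are not given in those sources. In the deposited lists, the authors give each peak a fold enrichment, a ratio over control. The authors also give each peak's q-value as −log10 q, and the deposited offset of its summit from the peak start. Depth per library is unknown, so no interval on a fold can be given.

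Peaks on the main chromosomes were merged at a minimum overlap of 1 bp with Python 3.11.15, pandas 2.3.3, numpy 2.4.6 and scipy 1.17.1, after the merging was tested on simulated data; matplotlib 3.10.9 drew the plots. A window region is one that touches a window. Genome density used the last peak end per chromosome, 2641 Mb in all. Exact Clopper-Pearson 95% intervals were given for shares. With 1 list a condition and no values of single replicates, no test was made. Fold is the highest peak of a region in a list; its place is the percentage of peaks, or of regions called in every list of a set, with a lower fold. Places within shared sets were added after the values were seen.

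Regions were named by a rule. Per locus it took the 5 with the highest fold in any list and all with the 3 factors in serum or at 24 h. It also took all in 2 or more 2i lists and no serum list, and all in serum lists alone, up to 6 per class. The 5 by fold were chosen across lists, and most had their highest fold in the TKO list. The windows, members and lists were chosen with earlier results of these data known. Promoters are RefSeq sequences of GRCm38.p6, found for 3 of 5 genes. No mm9 gene annotation was used here, so regions were not assigned to exons or introns. Alternatives were an overlap of 50% of the shorter peak, a minimum −log10 q of 10, the higher of the lowest −log10 q of each pair, equal list lengths, windows widened by 50 kb and, added after seeing the data, lists without TKO and shorter or stricter lists for the counts over several lists.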

Additional observations from a re-analysis of the deposited data

How the results depend on the processing

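Of 111 counts that answer a comparison, 84 stayed within 1.5 times under the alternatives and 27 did not; none has a test. Of 140 counts of peaks per list and locus, 128 stayed and 12 did not. A minimum −log10 q of 10 could change only counts that use Sox2 at 24 h or 3 passages, or H3K4me3 at 24 h. Their lowest −log10 q was 3.69, 7.52 and 4.91, and every other list already lay above 10. The other counts stayed at that setting by construction. At equal list length, Nanog lot 1 gave 5 regions at 24 h alone and 5 in serum alone, a tie. It gave 6 at 3 passages alone and 7 in serum alone, which turned their order, though both counts stayed within 1.5 times. Also beyond 1.5 times were TKO alone 21 and KH2 alone 6, lot 1 alone 9, and Sox2 serum alone against 3 passages 3. The same held for Oct4 24 h alone 0 and serum alone 4, and H3K4me3 24 h alone 2 and serum alone 3. With −log10 q of at least 10, Sox2 at 24 h alone and at 3 passages alone fell to 0 regions each, H3K4me3 at 24 h alone to 0, H3K4me3 in serum alone against 24 h came to 12, and H3K4me3 regions in all 3 conditions, an alternative added later, to 8. With both lists at the higher of their lowest −log10 q, 24 h alone and 3 passages alone were 0 for Sox2, with 13 and 16 in serum alone, and H3K4me3 had 0 at 24 h alone and 12 in serum alone, and 3 in serum alone against 3 passages. With windows widened by 50 kb, Nanog lot 1 at 3 passages alone came to 14, lot 2 at 24 h alone to 7, Oct4 at 24 h alone to 4 and H3K4me3 at 24 h alone to 2. Without the TKO list, added after seeing the data, 57 factor regions were left, of which 8 were in all 10 lists (14.04%, against 4.12% genome-wide) and 15 in 1 (26.3%, against 32.6%). Requiring an overlap of 50% of the shorter peak moved none of its 20 counts beyond 1.5 times. Stricter cut-offs and equal lengths remove peaks, and wider windows add them. A region can also move to serum alone when its peak in the 2i list is removed. How far each count was set in this way was not tested. No paired analysis was possible because each condition had 1 list with no value per replicate, and read depth is unknown.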
